A study of Rattus norvegicus with 10 samples.

Results

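The heat shock proteins and cytosolic chaperones of the adult rat testis were examined by the levels of their transcripts. The members are the gene symbols of the Hspa, Hspb, Hspd, Hspe, Hsph, Hsp90, Dnaja, Dnajb, Dnajc and Cct families with Tcp1, found by their names and not by their values. There were 80 such symbols among the 17274 symbols of the deposited table. They sit on 79 loci, because Hspa1a and Hspa1b share 1 locus. Where a symbol had several loci, the locus with the highest mean level was taken.

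The samples were testes of male Wistar rats at postnatal day 120, with 5 libraries in each group. The mothers of the exposed group were fed BDE-47, one of the polybrominated flame retardants, at 0.2 mg/kg body weight per day in tocopherol-stripped corn oil. The mothers of the vehicle group were fed the same stripped oil alone, and in both groups of 7 dams feeding ran from day 8 of pregnancy to day 21 after birth. The labels name no litter, so littermates may be among the libraries. The deposited table holds 1 value per group for each locus, in FPKM (fragments scaled to transcript length and library size), so no spread between animals, no depth and no test can be given. All comparisons below are therefore descriptions of a pair of group values, and their direction rests on the names of the columns. The titles of libraries labelled BDE-47 carry the letter C and those labelled vehicle the letter X, and how the libraries were assigned to the columns is not shown.

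Chaperones bind unfolded or partly folded proteins and keep them from clumping. Members of the Hsp70 family do so in cycles of ATP hydrolysis that J-domain proteins (the Dnaj genes) start and exchange factors end, Hsp90 proteins act late on signalling proteins and kinases, and the chaperonin ring built from Tcp1 and the Cct proteins encloses new actin and tubulin. Small heat shock proteins (Hspb) hold unfolded proteins without ATP. Male germ cells are known for their own versions of these proteins, made as a part of development and not in answer to heat, while the classical heat-induced genes are switched on by heat shock factors that bind heat shock elements in promoters.

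A smaller share of the chaperone genes than of all genes was at least 2-fold higher with BDE-47, and 4 of the 6 members called lower were germ cell versions. Of the 80 members, 77 averaged 1 FPKM or more across the columns and were compared. A gene is called higher or lower when its difference is 2-fold or more on the scale of log2(FPKM + 1), which understates the difference of low values. Of the 77 members, 10 (13.0%) were called higher in the BDE-47 column and 6 (7.79%) lower. Over the 11567 genes compared, 30.1% were called higher and 3.60% lower. The median difference of the members, BDE-47 minus vehicle on that scale, was 0.14, against 0.45 for all genes. Scaling matters for these counts, because the columns are shifted against each other. Median-of-ratios scaling removed a shift of 0.52 log2 units, after which 8 members were called higher and 17 lower (22.1%), against 19.3% and 14.5% of all genes. After quantile normalization 6 members were called higher and 9 lower, against 14.3% and 14.1% of all genes. The median of the members was then -0.065, against -0.069 for all genes, so the gap between these medians was no longer seen. All 16 members called as deposited kept their direction under both scalings and under scaling to a total without the most abundant loci.

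**Figure D1:**
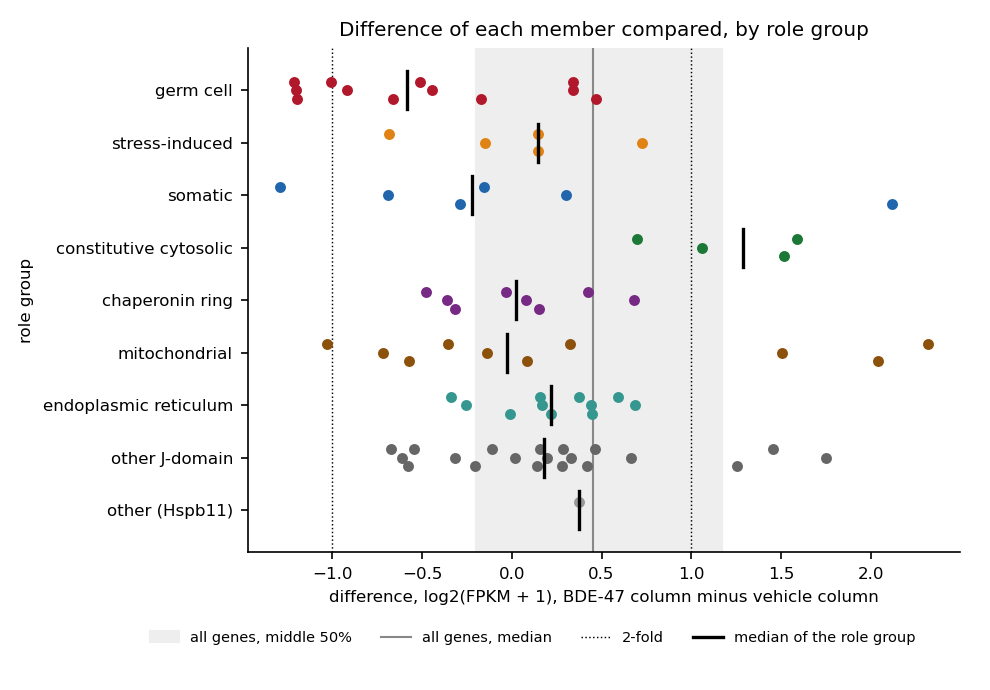
Difference between the columns for each of the 77 members compared (points), on the scale of log2(FPKM + 1), BDE-47 minus vehicle, in rows by role. The grey band and line are the middle 50% and the median (0.45) of 11567 genes, the black bars the median of each row, and the dotted lines 2-fold. Germ cell members lie mostly left of the band and the 4 constitutive cytosolic members all right of the grey line.

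The germ cell versions were the most abundant chaperone transcripts, and for most of them the BDE-47 value was the lower one. They held 8 of the 10 highest chaperone loci in the vehicle column and 55.5% of the summed FPKM of all members there, against 44.8% in the BDE-47 column. Without Hsp90aa1, which somatic cells can also make under stress, these shares were 48.7% and 34.1%. Of the 12 compared, 4 were called lower (33.3%, against 3.60% of all genes) and none higher (against 30.1%), with a median difference of -0.59. In 9 of the 12 the BDE-47 value was the lower one under every scaling. In the other 3 it was higher as deposited and lower after median-of-ratios scaling. The remaining member of the group, Cct8l1, a chaperonin-like gene, is listed at 0 in both columns at each of its loci.

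**Figure D2:**
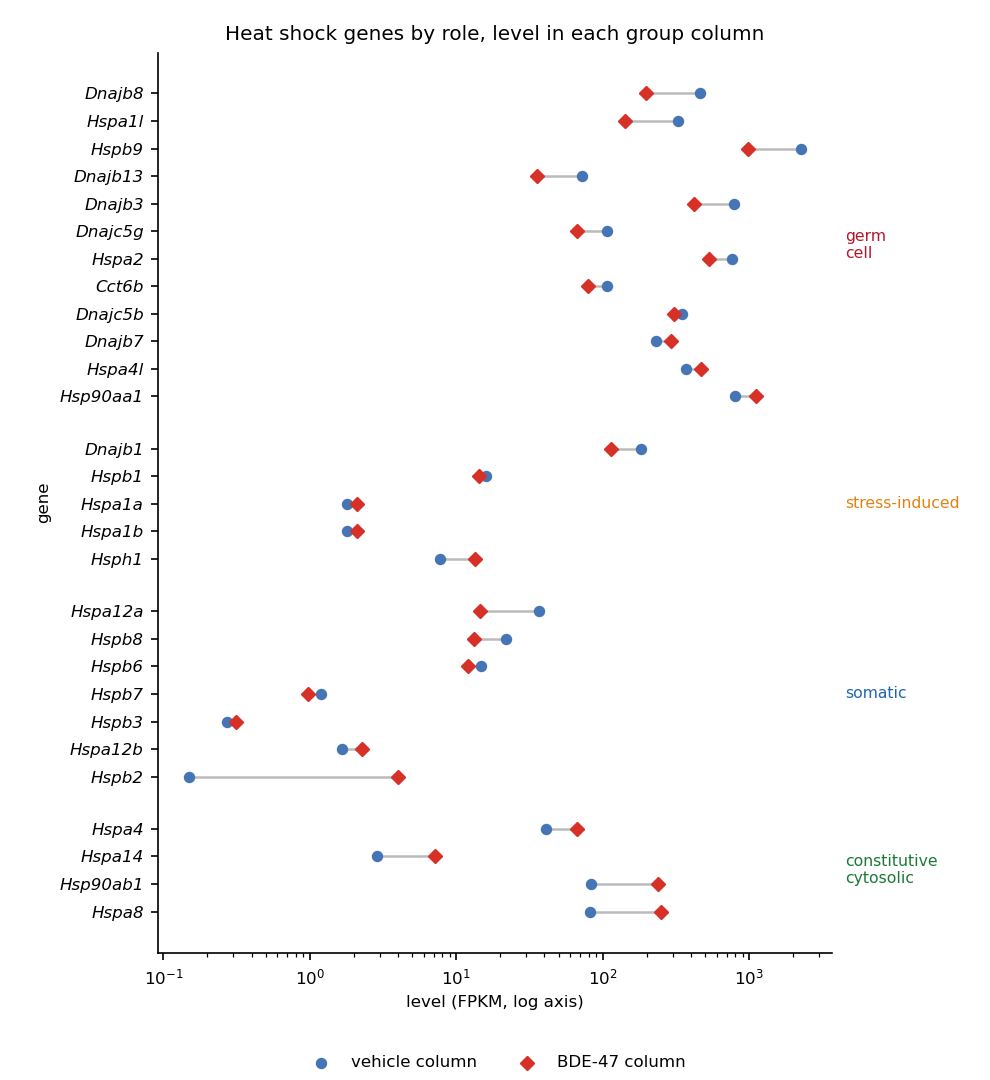
Level of each member in the vehicle column (blue circles) and the BDE-47 column (red diamonds), in FPKM on a log axis, for the germ cell, stress-induced, somatic and constitutive cytosolic members. Hspb9 is the highest at 2257 and 982 FPKM, Hspa1a and Hspa1b share 1 locus at about 2 FPKM, and Cct8l1, listed at 0, is not drawn.

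The 4 germ cell genes called lower were Dnajb8, Hspa1l, Hspb9 and Dnajb13. Hspb9, a small heat shock protein of the testis, at chromosome 10:88414867-88415513 of build rn5, was at 2257 FPKM with vehicle and 982 with BDE-47, a difference of -1.20. It ranked 14th of 16915 gene names in the vehicle column and 56th in the BDE-47 column. Dnajb8, a J-domain protein that in cultured cells keeps polyglutamine proteins from clumping, was at 458 and 197 FPKM (-1.22). Hspa1l, the Hsp70 of spermatids, at chromosome 20:6709071-7038454, was at 326 and 141 FPKM (-1.20). These 3 genes, of different families and on different chromosomes, had nearly the same difference. Dnajb13, a J-domain protein of the radial spokes of the sperm tail, was at 72.5 and 35.5 FPKM (-1.01), just past the 2-fold line.

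Dnajb3, known in mouse as a J-domain protein of spermatids, fell just short of that line, at 792 and 419 FPKM (-0.92). Hspa2, the Hsp70 that spermatocytes need to complete meiosis in mouse, was at 760 and 534 FPKM (-0.51). Dnajc5g and Dnajc5b, relatives of the cysteine string protein of synapses, were at 106 and 66.7 FPKM (-0.66) and at 347 and 309 FPKM (-0.17). Cct6b, the testis version of a chaperonin ring subunit, was at 108 and 78.8 FPKM (-0.45). So the spermatid Hsp70 differed by more than the meiotic one, though neither difference has an error.

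Hsp90aa1, Hspa4l and Dnajb7 had the opposite sign as deposited. Hsp90aa1, the Hsp90 that mouse spermatocytes require, was at 803 and 1113 FPKM (0.47, and -0.05 after median-of-ratios scaling). Hspa4l, a relative of Hsp110 that is rich in the testis, shares a locus with Plk4, a kinase of centriole duplication, so its value belongs to neither gene alone. That locus was at 372 and 471 FPKM (0.34, and -0.18 after that scaling). Dnajb7 was at 232 and 294 FPKM (0.34, and -0.18). Relative to the all-gene median, these 3 genes were thus close to the middle of the table.

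Markers of spermatids had the same direction as most of these genes, those of spermatocytes were divided, and most of those of somatic cells were higher. The spermatid list, led by the genes of the DNA-packing proteins Tnp2, Prm1, Prm2 and Tnp1, had 7 of 10 called lower, 0 called higher, a median of -1.24 and a summed level of 77196 and 30490 FPKM. Of all genes, 3.60% were called lower. After median-of-ratios scaling 8 of these 10 were called lower, against 14.5% of all genes, and after quantile normalization 5, against 14.1%. Of 10 spermatocyte markers, 3 were called higher and 1 lower, with a median of 0.56 and a summed level of 1337 and 1603 FPKM. That is 30%, against 30.1% of all genes called higher, and after median-of-ratios scaling 0 were called higher and 2 lower, with a median of 0.09. Counted by sign alone, 6 of the 10 were higher and 4 lower as deposited, and 5 were higher and 5 lower after that scaling. Of the markers of other cells, 8 of 10 Sertoli cell genes (median 1.52, summed level 345 and 1881 FPKM), all 8 Leydig cell genes (2.66, 153 and 1688) and all 8 macrophage genes (3.60, 29.0 and 425) were called higher. Peritubular smooth muscle had 5 of 8 called higher (1.46, 109 and 310) and endothelium 2 of 5 (0.86, 92.4 and 149). Most of that endothelium sum is 1 locus, at 88.0 and 133 FPKM, which Tek shares with Eqtn, so its value belongs to neither alone. Of all genes, 30.1% were called higher. After median-of-ratios scaling 6 Sertoli cell, 8 Leydig cell, 7 macrophage, 4 smooth muscle and 1 endothelium genes were called higher, against 19.3% of all genes. After quantile normalization these numbers were 5, 8, 7, 3 and 0, against 14.3% of all genes. Cd68 of the macrophage list (0.796 and 17.4 FPKM) passed the 1 FPKM mean only through the BDE-47 column. The same holds for Pecam1 (0.570 and 3.94) and Esam (0.940 and 2.53) of the endothelium list, so the direction of these genes supports nothing. No marker compared was listed at 0 in either column, and the part of these cells in the chaperone values was not tested. In a bulk sample, fewer cells of a type and less RNA per cell cannot be told apart. Germ cell, Sertoli cell and Leydig cell markers of testis were present in both columns. Of 5 liver genes compared, listed because the extraction text names liver, 2 were called higher and 1 lower. Hp, the haptoglobin gene, was at 23.1 and 142 FPKM, Cyp2e1, a cytochrome P450 gene, at 0.774 and 2.81, and Serpina1, the gene of an antiprotease, at 1479 and 662. Cyp2e1 passed the 1 FPKM mean only through the BDE-47 column. Apoa1 was at 1.21 and 1.17 FPKM and Fgb at 5.24 and 6.45. Alb (0.920 and 0.633), Ttr (0.142 and 1.67) and Tat (0.142 and 0.0595) stayed under that mean.

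**Figure D3:**
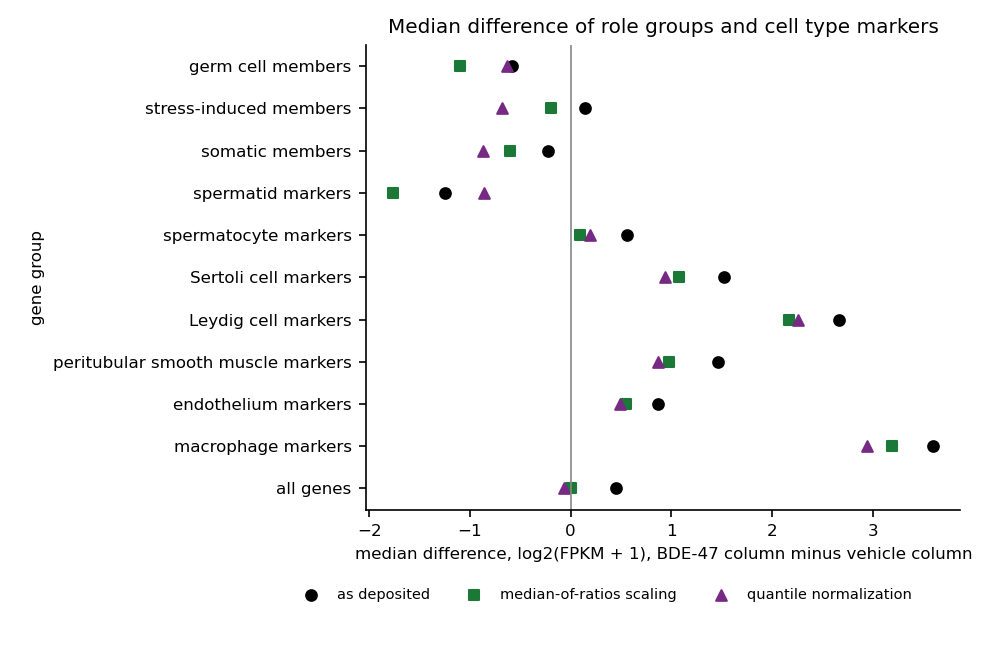
Median difference (log2(FPKM + 1), BDE-47 minus vehicle) of the germ cell, stress-induced and somatic chaperones, of 7 lists of cell type markers and of all genes, as deposited (circles), after median-of-ratios scaling (squares) and after quantile normalization (triangles). The germ cell members (-0.59 as deposited) lie on the side of the spermatid markers (-1.24) and not of the spermatocyte markers (0.56, with 6 genes above 0 and 4 below). The somatic members (-0.22) do not lie with the markers of somatic cells (0.86 to 3.60).

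The heat-induced genes gave no common direction, and none of the 5 was called, while 30.1% of all genes were called higher and 3.60% lower. The classical heat-induced Hsp70 genes Hspa1a and Hspa1b share a locus, with a sequence nearly the same in both, and this locus was at 1.79 and 2.08 FPKM (0.14, and -0.20 after median-of-ratios scaling). It lies in the same bundle as Hspa1l, whose level was 182 times higher in the vehicle column and 67.6 times higher in the BDE-47 column. Hsph1, an Hsp110 that recharges Hsp70, was at 7.73 and 13.5 FPKM (0.73) and was higher under every scaling, by 0.05 to 0.73. Dnajb1, the heat-induced J-domain partner of Hsp70, was at 182 and 113 FPKM (-0.69) and lower under every scaling. Hspb1, a small heat shock protein that also guards actin filaments, was at 16.0 and 14.3 FPKM (-0.15). Dnajb1 was therefore abundant in this testis table while the locus of the heat-induced Hsp70 genes Hspa1a and Hspa1b was near 2 FPKM. The level of that locus needs care, because reads of near-identical copies may be divided among loci.

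Promoters of the members were searched for heat shock elements, the binding sites of heat shock factors, and the search describes letters in a window, not bound sites. RefSeq promoters of build GRCr8, each from 250 bases before to 50 bases after the gene start, were matched by symbol for 64 of the 80 members. The motif of inverted 3-base units was written GAANNTTC or TTCNNGAA, both of which read the same on either strand and can overlap. It was present in 19 of the 64 promoters (29.7%), against 15.4% of all 27457 promoters. The longer form with 1 more unit, GAANNTTCNNGAA or TTCNNGAANNTTC on either strand, was present in 6 (9.38%), against 0.736%. The 6 genes were Cct4, Dnaja1, Hspa8, Hspd1, Hspe1 and Hsph1. Of these, Hspa8, Hspd1 and Hspe1 were called higher (50%), none was called lower and Cct4, Dnaja1 and Hsph1 lay within 2-fold. The Hspa8 value comes from a deposited locus on another chromosome than this promoter, and Hspd1 and Hspe1 share their element. These 3 calls are therefore not 3 separate pairs of an element and a level. By comparison, 30.0% of the 50 compared genes that have the longer form, these 6 among them, were called higher. That is close to the 30.1% of all genes. The promoters of Hspe1, Hspa8, Hsph1, Dnajb1 and the germ cell genes Hspa2, Hspb9 and Hspa1l, chosen after their values were seen, are shown so that windows with and without elements can be compared, with every match of the shorter motif in capitals.

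Hspe1 (chr9:64084077-64084376, plus strand): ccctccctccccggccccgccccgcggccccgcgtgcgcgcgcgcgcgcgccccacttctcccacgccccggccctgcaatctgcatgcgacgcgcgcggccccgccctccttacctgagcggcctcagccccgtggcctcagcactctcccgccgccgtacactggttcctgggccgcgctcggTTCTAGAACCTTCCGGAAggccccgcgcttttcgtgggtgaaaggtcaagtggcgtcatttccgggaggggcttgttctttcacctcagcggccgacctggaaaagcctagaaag
Hspa8 (chr8:50080264-50080563, plus strand): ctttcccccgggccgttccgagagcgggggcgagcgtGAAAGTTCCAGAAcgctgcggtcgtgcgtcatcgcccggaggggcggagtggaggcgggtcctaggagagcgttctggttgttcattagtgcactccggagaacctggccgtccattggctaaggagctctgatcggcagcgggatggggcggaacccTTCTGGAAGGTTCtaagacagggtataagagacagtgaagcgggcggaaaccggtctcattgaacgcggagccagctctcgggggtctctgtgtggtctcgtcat
Hsph1 (chr12:10427118-10427417, plus strand): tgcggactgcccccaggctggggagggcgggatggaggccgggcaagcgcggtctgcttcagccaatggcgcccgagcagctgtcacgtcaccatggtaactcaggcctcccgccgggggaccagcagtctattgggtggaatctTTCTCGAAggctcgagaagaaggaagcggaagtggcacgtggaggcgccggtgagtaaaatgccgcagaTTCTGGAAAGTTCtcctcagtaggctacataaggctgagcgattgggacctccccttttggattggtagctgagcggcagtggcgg
Dnajb1 (chr19:41431092-41431391, minus strand): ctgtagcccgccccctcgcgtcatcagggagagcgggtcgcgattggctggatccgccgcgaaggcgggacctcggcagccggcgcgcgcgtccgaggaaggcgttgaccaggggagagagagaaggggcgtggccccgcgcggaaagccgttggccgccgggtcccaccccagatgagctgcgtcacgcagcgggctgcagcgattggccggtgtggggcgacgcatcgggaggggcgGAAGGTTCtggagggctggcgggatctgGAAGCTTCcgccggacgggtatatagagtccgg
Hspa2 (chr6:100864192-100864491, plus strand): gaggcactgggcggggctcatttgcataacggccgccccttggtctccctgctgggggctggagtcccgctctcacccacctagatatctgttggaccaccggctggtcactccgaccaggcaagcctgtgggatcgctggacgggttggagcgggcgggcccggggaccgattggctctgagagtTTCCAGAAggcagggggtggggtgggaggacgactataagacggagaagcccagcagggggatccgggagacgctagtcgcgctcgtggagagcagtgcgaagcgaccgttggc
Hspb9 (chr10:86141353-86141652, plus strand): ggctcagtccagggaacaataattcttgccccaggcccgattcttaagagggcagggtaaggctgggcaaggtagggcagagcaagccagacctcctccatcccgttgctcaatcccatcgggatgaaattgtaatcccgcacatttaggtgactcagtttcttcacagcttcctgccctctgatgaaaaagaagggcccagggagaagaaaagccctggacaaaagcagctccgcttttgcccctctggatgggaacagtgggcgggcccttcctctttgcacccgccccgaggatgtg
Hspa1l (chr20:3860174-3860473, minus strand): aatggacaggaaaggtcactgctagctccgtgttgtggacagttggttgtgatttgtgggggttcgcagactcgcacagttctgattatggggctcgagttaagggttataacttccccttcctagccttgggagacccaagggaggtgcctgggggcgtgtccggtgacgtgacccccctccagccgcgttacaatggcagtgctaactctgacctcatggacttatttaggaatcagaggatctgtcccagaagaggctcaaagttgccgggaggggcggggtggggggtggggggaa

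In Hspe1 the overlapping matches begin 65 bases before the start and form an unbroken run of alternating units. In Hspa8 there is such a run at 213 and at 55 bases before the start, and in Hsph1 at 36. Dnajb1 has separate matches of the shorter motif, 1 of them 11 bases before the start, and Hspa2 has 1 match 64 bases before it. Hspb9 and Hspa1l have no match in this window, which says only that these letters are not in it. Of the 10 germ cell promoters in the table, 3 had the shorter motif (Dnajc5g, Hspa2 and Hspa4l) and none the longer one, and of the 11 promoters of endoplasmic reticulum members none had either. Of the 4 stress-induced promoters, 3 had the shorter motif (Dnajb1, Hspb1 and Hsph1) and 1 the longer (Hsph1). The other, that of Hspa1a, had no match in this window, although Hspa1a is a classical heat-induced gene. Over all members, the 19 with the shorter motif had a median difference of -0.11 and the 43 compared without it 0.08.

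The somatic members did not share the higher values of somatic cell markers. Of the 6 compared, 1 was called higher (16.7%, against 30.1% of all genes) and 1 lower (16.7%, against 3.60%), with a median of -0.22. Hspa12a, a distant Hsp70 relative, was at 36.8 and 14.4 FPKM (-1.29), the lowest difference of all 77 members, and was lower under every scaling. Its other locus at the same coordinates was at 0.511 and 0.607 FPKM. Hspb8, which works with Bag3 in clearing proteins in muscle, was at 22.0 and 13.3 FPKM (-0.69), and Hspb6, which relaxes smooth muscle, at 14.8 and 12.0 FPKM (-0.29). Both were lower under every scaling, although 5 of 8 peritubular smooth muscle markers were called higher as deposited.

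Hspb2 was the exception. This small heat shock protein of muscle was at 0.150 and 4.00 FPKM (2.12). Its neighbour Cryab, the alpha-B-crystallin gene, lies 425 bases away on chromosome 8 in the deposited coordinates and was at 0.595 and 4.86 FPKM (1.88). Both genes passed the 1 FPKM mean only through the BDE-47 column, so their shared direction supports nothing, and at a minimum mean of 5 FPKM neither was compared. Hspa12b, the Hsp70 relative of endothelium, was at 1.65 and 2.27 FPKM (0.30, and -0.04 after median-of-ratios scaling), and Hspb7, of heart muscle, at 1.19 and 0.966 FPKM (-0.16). Hspb3 stayed under the 1 FPKM mean, at 0.272 and 0.312.

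The constitutive cytosolic Hsp70 and Hsp90 genes had higher values with BDE-47, and 3 of 4 were called (75%, against 30.1% of all genes), with a median difference of 1.29 and the same sign under every scaling. After each of the 3 scalings 2 of the 4 were called (50%), Hspa14 no longer among them, and the median was 0.82 after median-of-ratios scaling. Of all genes, 19.3% were called higher after median-of-ratios scaling, 14.3% after quantile normalization and 25.1% after scaling without the most abundant loci. Hspa8, the Hsp70 that all cells make, was at 82.1 and 249 FPKM (1.59). Hsp90ab1, the Hsp90 of most somatic cells, at chromosome 9:16706511-16711884, was at 82.7 and 239 FPKM (1.52). The levels of this pair were nearly equal in each column. Hspa4, an exchange factor of Hsp70, was at 41.1 and 67.2 FPKM (0.70). Hspa14, an Hsp70 bound to ribosomes, was at 2.89 and 7.11 FPKM (1.06), but it has 4 loci with the same coordinates, and with their values summed its difference was 0.42.

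The ratio of germ cell to general versions was lower in the BDE-47 column by unequal amounts. The level of Hsp90aa1 was 9.71 times that of Hsp90ab1 in the vehicle column and 4.66 times in the BDE-47 column. Hspa2 was at 9.25 times the level of Hspa8 in the vehicle column and 2.14 times in the BDE-47 column. The locus of Hspa4l was at 9.06 times the level of Hspa4 in the vehicle column and 7.01 times in the BDE-47 column. These ratios within a column do not depend on how the columns are scaled to each other. The Hspa8 value needs care, because the deposited locus at chromosome 11:17153157-17155257 lies on another chromosome than the Hspa8 gene of the reference table, and reads of near-identical copies may be divided among loci. The same holds for Dnajc22. The Hspa8 promoter shown above is that of the reference gene.

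None of the 8 genes of the chaperonin ring was called, with a median difference of 0.02, which was -0.49 after median-of-ratios scaling. Of all genes, 30.1% were called higher and 3.60% lower. Each ring is built of 1 copy of every subunit, while their transcripts differed widely in level. Cct5 was the highest in the vehicle column and Cct6a the lowest, 12.2-fold apart, and in the BDE-47 column Cct4 and Cct6a were 6.15-fold apart. Cct7 was at 124 and 89.3 FPKM (-0.48), Cct5 at 350 and 272 (-0.36) and Cct3 at 269 and 215 (-0.32), and these 3 were lower under every scaling. Cct4, at 292 and 286 FPKM (-0.03), was lower under every scaling too. Tcp1 was at 205 and 217 (0.08, and -0.44 after median-of-ratios scaling) and Cct2 at 162 and 180 (0.15, and -0.37). Cct8 was at 78.2 and 105 FPKM (0.43, and -0.09 after median-of-ratios scaling) and Cct6a at 28.6 and 46.5 (0.68), the only subunit gene higher under every scaling. Cct6a and its testis version Cct6b thus differed in opposite directions, and the level of Cct6b was 3.76 times that of Cct6a in the vehicle column and 1.69 times in the BDE-47 column.

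**Figure D4:**
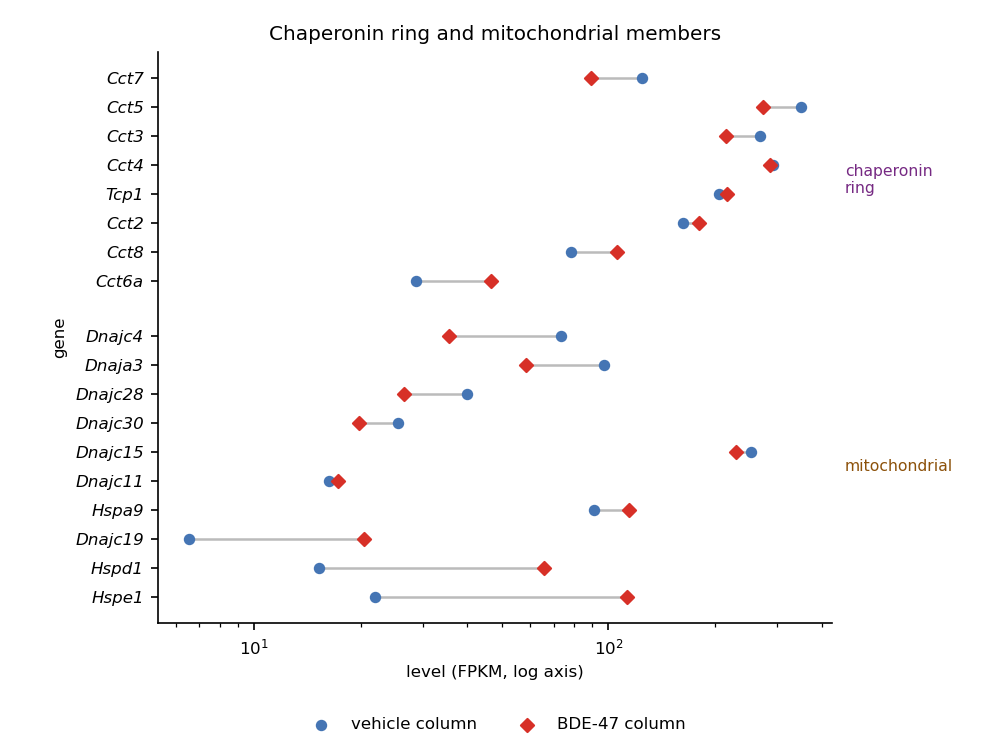
Level of the 8 chaperonin ring genes and the 10 mitochondrial members in the vehicle column (blue circles) and the BDE-47 column (red diamonds), in FPKM on a log axis. Cct6a is the lowest ring gene in both columns, and Hspd1 and Hspe1 show the widest gaps.

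Of the 10 mitochondrial members, 3 were called higher (30%, against 30.1% of all genes) and 1 lower (10%, against 3.60%), with a median difference of -0.03. After median-of-ratios scaling 3 were called higher and 3 lower (30% each, against 19.3% and 14.5% of all genes), with a median of -0.53. Hspe1 and Hspd1, which encode the lid and the barrel of the mitochondrial chaperonin, had the highest differences of their group. Hspe1 was at 21.9 and 113 FPKM (2.32), the highest difference of all 77 members with the pseudocount of 1, and Hspd1 at 15.2 and 65.8 FPKM (2.04). They share the locus interval chromosome 9:61361626-61375655 and lie head to head, so that their promoter windows overlap by 211 of 300 bases and the heat shock element shown for Hspe1 is also that of Hspd1. Hspe1 was at 1.43 times the level of Hspd1 in the vehicle column and 1.72 times in the BDE-47 column. Dnajc19, a J-domain protein of the mitochondrial import motor, was at 6.54 and 20.4 FPKM (1.5).

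Other mitochondrial chaperones did not follow this pair. Hspa9, the mitochondrial Hsp70, was at 91.1 and 115 FPKM (0.33, and -0.19 after median-of-ratios scaling). Dnaja3, its J-domain partner, was at 97.0 and 58.5 FPKM (-0.72). Dnajc15, another J-domain protein of the import motor, was the most abundant of the group at 252 and 229 FPKM (-0.14). The member called lower was Dnajc4, at 73.5 and 35.5 FPKM (-1.03), on a locus that it shares with Vegfb, a growth factor gene, so the value belongs to neither alone. The members not named here, Dnajc11, Dnajc28 and Dnajc30, lay between -0.57 and 0.08.

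The endoplasmic reticulum chaperones lay within 2-fold in all 11 cases, with a median difference of 0.22 that was -0.25 after median-of-ratios scaling. Among all genes, 30.1% were called higher and 3.60% lower. Hsp90b1, the Hsp90 of this compartment, was the most abundant at 202 and 236 FPKM (0.22). Hspa5, its Hsp70 and a marker of the unfolded protein response, was at 191 and 215 FPKM (0.17). Both signs turned under median-of-ratios scaling. Dnajb9, a J-domain partner that the same response induces, was at 119 and 193 FPKM (0.69) and, with Dnajc10 at 30.3 and 46.2 (0.59), was higher under every scaling. The other 7 lay between -0.34 and 0.45.

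Of the other J-domain proteins, 3 of the 20 compared were called higher (15%, against 30.1% of all genes) and 0 lower, with a median of 0.18. After median-of-ratios scaling 2 were called higher and 4 lower (10% and 20%, against 19.3% and 14.5% of all genes), with a median of -0.32. After quantile normalization there was 1 each (5%, against 14.3% and 14.1%). Dnajc22 and Dnajc12 passed the 1 FPKM mean only through the BDE-47 column, and at a minimum mean of 5 FPKM 1 of the 3 calls was left, that of Dnajc5. Dnajc22 was at 0.114 and 2.75 FPKM (1.75) and Dnajc12, a partner of the aromatic amino acid hydroxylases, at 0.790 and 3.27 FPKM (1.25). Dnajc5, the cysteine string protein of secretory vesicles, was at 4.20 and 13.3 FPKM (1.46), whereas its testis relatives Dnajc5b and Dnajc5g were not higher. The most abundant were Dnajb4 at 430.5 and 474 FPKM (0.14, and -0.38 after median-of-ratios scaling), Dnajb6 at 246 and 228 (-0.11) and Dnaja4 at 256 and 171 (-0.58). Dnajb2, Dnajb5, Dnaja4 and Dnajc18 lay between -0.67 and -0.55 and were lower under every scaling. Dnajc6, the auxilin gene of clathrin uncoating, stayed under the 1 FPKM mean at 0.270 and 0.448. Hspb11, a member by name that serves transport in cilia, was at 20.5 and 26.9 FPKM (0.37, and -0.12 after median-of-ratios scaling).

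Genes that work with the chaperones were near the middle of the table. Of 36 co-chaperone genes on the list, 33 were compared, of which 5 were called higher and 0 lower (15.2% and 0%, against 30.1% and 3.60% of all genes), with a median of 0.48. The 4 with the highest difference were Pdcl3, a phosducin-like helper of the chaperonin ring, at 2.31 and 12.2 FPKM (2.00), Chordc1 (1.30) and Ppid (1.09), partners of Hsp90, and Bag2 (1.29), a regulator of Hsp70. Unc45a, a myosin chaperone, was the fifth (1.01). After median-of-ratios scaling only Pdcl3 was called higher and 4 were called lower (3.03% and 12.1%, against 19.3% and 14.5% of all genes). None of the 5 prefoldin genes compared, whose products hand new actin and tubulin to the chaperonin ring, was called, and Pfdn5 (286 and 215 FPKM, -0.41) and Pfdn1 (127 and 145, 0.19) were the most abundant. None of the 3 heat shock factor genes compared was called. Hsfy2, a relative of the heat shock factors, was at 75.1 and 89.3 FPKM (0.25), Hsf2, a factor active in spermatocytes, at 35.0 and 57.7 (0.70) and Hsf1, the factor of the heat response, at 9.06 and 7.89 (-0.18). Odf1, a sperm tail protein that belongs to the small heat shock family, was at 4270 and 2419 FPKM (-0.82).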

How the data were processed

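Testis poly(A) RNA of 5 vehicle and 5 BDE-47 libraries was measured. Per the submitters' processing notes, TopHat2 and Cuffdiff 2.1.1 were used on rat build rn5; the annotation, strand setting and way of combining libraries were not given in the sources used here. Values deposited by the authors are log2 FPKM, with 1 value per group and locus, and their log2 ratio, which equals the difference of the columns within 0.01. A log2 value of -10 was read as listed at 0, which can be a failed estimate. Libraries labelled BDE-47 have titles with C and those labelled vehicle titles with X, and which libraries entered which column is not shown. Depth is unknown.

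Of 94827 loci, 20638 carry a gene name. One locus per name field gave 16915 names, of which 11567 averaged 1 FPKM or more across the columns (517 name several genes). Members and gene lists were chosen with earlier results of these data known. Differences used a pseudocount of 1 and the 2-fold rule, a rule of size and not a test. All members may be named. In other lists up to 4 genes past 2-fold were named, otherwise the 2 with the highest mean. Named outside this rule were Unc45a, Hsf1, Odf1, Cd68, Esam, Tek and the liver genes Alb, Apoa1, Fgb, Tat and Ttr. Of the 80 symbols, 78 were symbols and 2 synonyms in RefSeq's GRCr8 gene table. The planned test for values per library was limma, which group values do not allow. Python 3.11.15, numpy 2.4.6, pandas 2.3.3 and matplotlib 3.10.9 were used, and the scalings and calls were tested on simulated data.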

Additional observations from a re-analysis of the deposited data

How the results depend on the processing

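No replicate could be left out and no error is known, because the table holds 1 value per group. No paired analysis was possible because the columns carry no replicate. Pseudocounts of 0.1 and 0.01 and the deposited ratio changed no call among the 16 members called, and none of the 16 changed direction under any alternative in which it had a value. They did change the order: with a pseudocount of 0.1, Hspb2 (4.04) and Dnajc22 (3.73) had larger differences than Hspe1 (2.36). The median difference of the members (0.14) was 0.15 with a pseudocount of 0.01 and with the deposited ratio. It was 0.020 at a minimum mean of 5 FPKM and 0.14 without merged loci. After median-of-ratios scaling it was -0.37, after quantile normalization -0.065, and -0.065 after scaling to a total without mitochondrial genes and the 100 highest loci. Minus the all-gene median of the same setting, it was -0.31 as deposited and -0.37 after median-of-ratios scaling. That gap was 0.0039 after quantile normalization, where members and all genes had nearly the same median, and -0.33 after scaling to that total. At that minimum of 5 FPKM, which leaves fewer genes, 6 members were called higher and 0 somatic members. After median-of-ratios scaling 17 members were called lower, among them 7 germ cell, 1 stress-induced and 2 somatic members, with 1 co-chaperone higher and 4 lower. After quantile normalization 6 members were called higher, 2 somatic members lower and 1 co-chaperone higher. After scaling without the most abundant loci 3 co-chaperones were called higher and 1 lower. With a 3-fold rule 5 members were called higher and 0 lower, with 0 germ cell and 0 somatic members lower and 1 co-chaperone higher. The shares of all genes called with a 3-fold rule or at a minimum mean of 5 FPKM were not counted. The counts of members in these settings therefore cannot be set against all genes. Counting Hsp90aa1 among the stress-induced members changed no number of called genes, but left 11 germ cell members compared, 7 of the 10 highest loci and 48.7% and 34.1% of the summed FPKM of all members. The longer heat shock element was in 6 promoters where the shorter was in 19. The cause of these changes was not tested beyond the construction of each alternative.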
